A study of Mus musculus with 6 samples.

Results

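Hedgehog signalling was followed through 8 genes, the ligands Shh and Ihh, the receptors and surface proteins Ptch1, Smo and Hhip, and the transcription factors Gli1, Gli2 and Gli3. The members are the genes to which the array annotation gives these names, out of 27975 genes on the array, and each of their 15 probes was examined. All 8 passed the filter on dim probes and were tested among 20569 genes. Gene expression was measured in epithelial sheets peeled from mouse forestomach, the stomach compartment with a stratified squamous lining. The 3 control mice carried K5-CreER, a recombinase driven by the keratin 5 promoter in basal cells and switched on by tamoxifen. The 3 mutants carried K5-CreER and Rosa26Sox2/Sox2, a Sox2 transgene in the Rosa26 locus, on both copies. All mice, controls included, were injected with 2 doses of tamoxifen at 7 weeks, had a stated age of 12 weeks and were of mixed 129/Sv and C57/BL6 strain. Every array paired the sample, labelled with Cy5, with Universal Mouse Reference RNA from 11 cell lines, labelled with Cy3.

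In the Hedgehog pathway a secreted ligand binds Ptch1, which otherwise holds Smo inactive. Active Smo, working at the primary cilium, lets Gli2 and Gli3 act as activators in place of repressors. Gli1, Ptch1 and Hhip are themselves induced by the pathway in many tissues, so their RNA is often read as its output. In the stomach, Shh is known from the glandular epithelium, including acid-secreting parietal cells, Ihh from surface pit cells, and the response from the mesenchyme below.

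None of the 8 genes passed the test between genotypes (limma, adjusted p threshold 0.05), against 581 of 20569 genes in all (2.82%). The arrays of the groups did not overlap for 3 of the 8 (Gli3 higher, Gli1 and Ptch1 lower in mutants), against 37.9% of all genes tested, a share close to that background. At an unadjusted p under 0.05 there was 1 of the 8 members, Gli3, against 4905 of 20569 genes in all. The median log2 difference, mutant minus control, was 0.06 over the 8 and 0.01 over all genes tested. The count of 581 was itself unstable: it became 57 without control 1, 43 without control 2 and 1483 without control 3, and 34 or 36 without mutant 2 or mutant 3. Counts of called members changed with 2 settings. In 1 of them arrays were given unequal weights, from 0.08 for control 3 and 0.15 for mutant 1 to 7.63 for mutant 3. With these array weights 4 members passed (Ihh and Ptch1 lower, Gli2 and Gli3 higher), at a setting that called 56.2% of all genes. Without control 3 and mutant 1, a choice made after seeing the data that leaves the 2 most alike pairs of arrays, 3 passed (Ihh, Ptch1 and Gli3), at a setting that called 37.6% of all genes.

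The arrays were not alike, and this bears on several of the genes. The sample channel of control 3 was well above background at 62.6% of the probes, against 73.1% to 76.2% on the others, and that array alone was scanned on another day and lay on a slide of its own. Controls 1 and 2 shared a slide and the mutants shared another, so that genotype and slide cannot be told apart. Some pairs were far more alike than others: the scaled median absolute difference was 0.10 log2 units between mutants 2 and 3, 0.16 between controls 1 and 2, and at least 0.33 for any other pair. Of 7 basal squamous markers, Trp63, a regulator of stratified epithelia and the highest, had a log2 ratio to the reference of 6.76 to 7.18 on all arrays, and the others were above the reference on every array except Itga6, which ran from -1.18 to 1.23. Gland markers were also present: Gkn2, a product of gastric surface cells, was at 4.58 to 5.63 on 5 arrays and at 0.84 on control 3. The single Sox2 probe averaged 6.24 ± 0.15 in the controls and 5.82 ± 0.14 in the mutants (log2 ratio, SD, n = 3 arrays each; adjusted p = 0.143). Whether the transgene contains the stretch read by that probe is not stated, so the genotype is not checked by it.

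**Figure D1:**
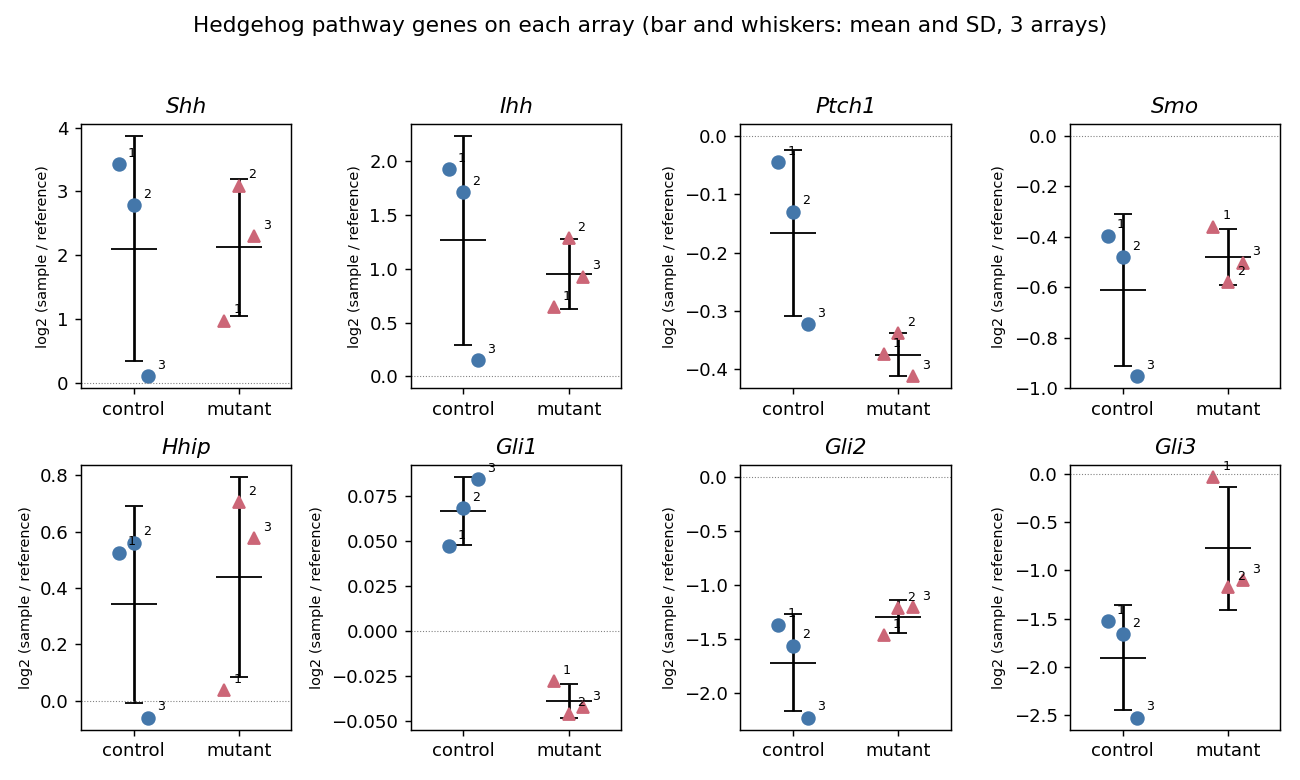
Log2 ratio of sample to reference for the 8 Hedgehog genes, one panel each with its own scale (circles controls, triangles mutants, numbered by replicate; bars and whiskers are mean and SD of 3 arrays). Shh, Ihh and Hhip were lowest on control 3 and mutant 1, Gli3 was highest on mutant 1, and groups separate for Gli1, Ptch1 and Gli3.

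The probes show what was read for each gene. The 4 printed here serve as the second reading for Ptch1, Smo and Gli2 and the single reading for Gli1. Their distance from the end of the message was not determined. Each is 60 bases long, reads open in at least 1 frame, and is given 5′ to 3′ as spotted, with positions in build mm9 from the file headers. The Smo probe is placed over chr6:29705582-29706815 on the plus strand, a span longer than the probe, so that it crosses an intron. The Ptch1 probe lies at chr13:63612907-63612966, the Gli1 probe at chr10:126767991-126768050 and the Gli2 probe at chr1:120732839-120732898, all on the minus strand.
Smo, A_52_P444864: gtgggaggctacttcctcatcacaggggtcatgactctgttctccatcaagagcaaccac
Ptch1, A_51_P127435: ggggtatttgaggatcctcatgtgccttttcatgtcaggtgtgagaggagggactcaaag
Gli1, A_51_P518548: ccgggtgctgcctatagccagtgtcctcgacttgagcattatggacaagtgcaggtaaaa
Gli2, A_52_P564620: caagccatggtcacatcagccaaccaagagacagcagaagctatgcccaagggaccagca
They start at positions 1765, 4179, 2549 and 4447 of their transcripts, in this order, and their G and C content is 53.3%, 50%, 51.7% and 55%. The probes that represent Shh, Ihh, Ptch1, Smo, Gli2, Gli3 and Hhip in the test are others, chosen by the brightest sample signal, and are not printed.

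The 2 ligands varied more among mice of one genotype than between genotypes. Shh, the best studied Hedgehog ligand, had log2 ratios to the reference of 3.43, 2.78 and 0.11 on controls 1 to 3 and of 0.98, 3.09 and 2.31 on mutants 1 to 3. The groups overlapped fully: the highest and the lowest array were both controls. The range was 3.32 log2 units within controls and 2.11 within mutants, against a difference of group means of 0.02 (SE 0.95, 95% interval -2.28 to 2.31, limma, adjusted p = 0.993). It was -0.98 without control 3, -0.46 without mutant 2, 0.68 without control 1 and 1.22 with the scanner's processed signals, and passed in none of these. The exact two-sided permutation test gave p = 1.0 (3 against 3 allow no p below 0.1). Shh is read by 1 probe printed in 10 spots, and the spots of one array had an SD of 0.08 to 0.10 log2 units, so the differences between arrays exceed the spot noise; noise between hybridisations was not measured. In background units, the sample signal was 21.7, 16.3 and 1.20 times the local background on controls 1 to 3 and 3.06, 16.2 and 9.27 times on mutants 1 to 3. On control 3 Shh was not well above background. The reference was not well above background for Shh on any array, so that the ratio measures sample signal over a floor.

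Ihh, the paralogous ligand, was likewise lowest on control 3 and next lowest on mutant 1, with a smaller span. Its log2 ratios were 1.93, 1.71 and 0.15 on controls 1 to 3 and 0.64, 1.29 and 0.93 on mutants 1 to 3. Every mutant lay below controls 1 and 2 and above control 3, so the groups overlapped. The difference was -0.31 (SE 0.48, 95% interval -1.47 to 0.85, adjusted p = 0.719; exact permutation p = 0.7). Ihh was not well above background on control 3, and without that array the difference was -0.87 (adjusted p = 0.072). Without control 1 it was 0.02. Ihh passed with array weights (-0.72, adjusted p = 0.003) and without control 3 and mutant 1 together (-0.71, adjusted p = 0.016). The second Ihh probe read 1.62, 1.38 and -0.16 in controls and 0.59, 1.52 and 1.08 in mutants, a difference of 0.12 with the opposite sign (SE 0.50). In the sample channel alone this probe differed by -0.07, the sign of the first probe, and the reference channel, not well above background on any array, by -0.19. It, too, was lowest on control 3 and next lowest on mutant 1.

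The low arrays of both ligands were also the low arrays for gland markers. Of 6 markers of parietal and chief cells, the acid- and pepsinogen-secreting cells of the glandular stomach, all 6 had control 3 and mutant 1 as their 2 lowest arrays; of all genes with a value on every array, 12.4% did. The median log2 ratio of these 6 was 4.50, 4.25 and 0.36 on controls 1 to 3 and 1.20, 4.03 and 3.53 on mutants 1 to 3. Their summed sample signal ran from 1003 to 799010 units in controls and from 2037 to 129520 in mutants. Chia1, an acidic chitinase of the mouse stomach, had log2 ratios of 5.71, 5.57 and 0.33 in controls and of 0.64, 5.68 and 5.46 in mutants. None of the 6 was called and none separated the groups. The summed signal of 7 pit and neck cell markers was again lowest on control 3, at 5421 units, and next lowest on mutant 1, at 309550, against 837230 to 1136400 on the other arrays. Gene by gene, 2 of these 7 had those arrays as their lowest pair. The part of these markers in the values of Shh and Ihh was not tested. In bulk RNA, fewer cells of a type and less RNA per cell cannot be told apart, here and for every gene below.

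**Figure D2:**
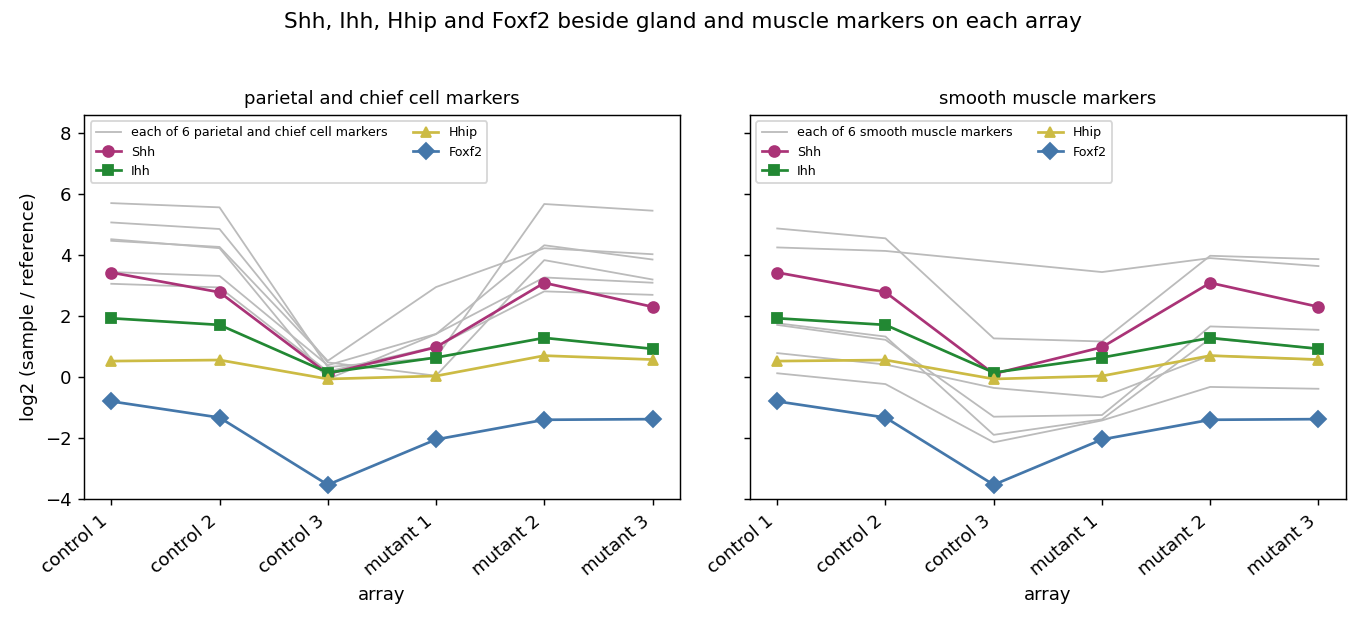
Log2 ratio of sample to reference on each array for Shh, Ihh, Hhip and Foxf2 (coloured) beside 6 parietal and chief cell markers (left, grey lines) and 6 smooth muscle markers (right, grey lines). The 4 coloured genes and 11 of the 12 markers were lowest on control 3 and mutant 1.

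Of the receptors and the ligand-binding protein Hhip, none passed in the main analysis. Ptch1, the ligand receptor and a common target of the pathway, had log2 ratios of -0.05, -0.13 and -0.32 in controls and of -0.37, -0.34 and -0.41 in mutants. All 3 mutants lay below all 3 controls, with control 3 only just above mutant 2. The difference was -0.21 (SE 0.12, 95% interval -0.50 to 0.09) and did not pass (adjusted p = 0.338; exact permutation p = 0.1). The sample channel alone differed by -0.11, with overlapping groups, and the reference channel by 0.10. The 10-spot Ptch1 probe printed above read -0.16, -0.38 and -0.13 in controls and -0.39, -0.16 and -0.29 in mutants, a difference of -0.06 (SE 0.13) with overlapping groups. Its spots had an SD of 0.05 to 0.11 within an array. Ptch1 kept its negative sign under all 23 alternatives, from -0.36 to -0.13, and passed with array weights (-0.28, adjusted p = 0.003) and without control 3 and mutant 1 (-0.29, adjusted p = 0.033).

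Smo, the membrane protein that transduces the signal, had log2 ratios of -0.40, -0.48 and -0.95 in controls and of -0.36, -0.58 and -0.50 in mutants. The 3 mutants lay within the range of the controls but for mutant 1, which was marginally above all. The difference was 0.13 (SE 0.18, 95% interval -0.30 to 0.56, adjusted p = 0.685; exact permutation p = 0.7), and it was -0.04 without control 3. This probe was very bright, at 437 to 1412 times background in the sample, and was flagged saturated in that channel on no array. Saturation of the reference channel was not checked. Raw intensities were 61614 to 69189 units in the sample and 57534 to 67254 in the reference, but 15739 and 39088 on control 3. The intron-spanning Smo probe printed above was at 2.92 to 5.45 times background and read -0.65, -0.96 and -0.24 in controls and -0.30, -0.24 and -0.17 in mutants. Its difference of 0.38 (SE 0.19) did not pass in the fit of single probes (adjusted p = 0.287), and -0.17 on the log2 scale was the change of the reference channel alone. A further Smo probe was well above background on 1 control and all 3 mutants, with a difference of 0.17 (SE 0.15).

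Hhip, which binds and sequesters the ligands, was near the detection limit. Its better probe was well above background on 2 controls and 2 mutants, at 1.37 to 3.15 times background over all arrays. The log2 ratios were 0.53, 0.56 and -0.06 in controls and 0.04, 0.70 and 0.58 in mutants. The 2 arrays not well above background were control 3 and mutant 1, the same arrays on which the ligands were lowest. The difference was 0.10 (SE 0.25, 95% interval -0.51 to 0.70, adjusted p = 0.835; exact permutation p = 0.5) and was -0.10 without control 3 and -0.04 without mutant 2. The reference was not well above background for the better probe on any array, so its ratio measures sample signal over a floor. The other Hhip probe was well above background on 0 of 6 arrays and was not tested.

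Among the transcription factors, Gli3 showed the largest difference of the 8 genes. Gli3, which serves mainly as the pathway's repressor, had log2 ratios of -1.52, -1.66 and -2.53 in controls and of -0.03, -1.17 and -1.10 in mutants. All mutants lay above all controls; mutant 1 stood well above the other mutants and control 3 well below the other controls. The raw sample intensity was 4423, 4210 and 565 units in controls and 11579, 5511 and 6217 in mutants. The raw reference intensity of the probe was also low on control 3, at 4948 units against 11036 to 12745 on the other arrays. After normalization the sample channel differed by 1.08 and the reference channel by -0.05 on the log2 scale. The difference was 1.13 (SE 0.40, 95% interval 0.17 to 2.10), or 2.19-fold, with an adjusted p of 0.162 (exact permutation p = 0.1). The value rests in part on single arrays: it was 0.77 without mutant 1 and 0.82 without control 3. Without both it was 0.45, with an adjusted p of 0.011, and with array weights 0.54, with an adjusted p of 0.004. The other Gli3 probe was well above background on 0 controls and 1 mutant, the mutant 1 array, and was not tested.

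Gli2, the main activator in many tissues, moved in the same direction by less. Its log2 ratios were -1.37, -1.56 and -2.23 in controls and -1.47, -1.21 and -1.20 in mutants. Mutant 1 fell between controls 1 and 2, so the groups overlapped, and Gli2 was not well above background on control 3. The difference was 0.43 (SE 0.24, 95% interval -0.16 to 1.01, adjusted p = 0.325; exact permutation p = 0.2). It was 0.17 without control 3, 1.07 with the scanner's processed signals and 0.76 with the authors' deposited table, and with array weights it was 0.33 and passed (adjusted p = 0.005). The Gli2 probe printed above was well above background on 0 of 3 controls and 3 of 3 mutants. It passed the filter through the mutants alone, so its values are given as a description: the sample channels of the groups overlapped, and the difference in the ratio was 0.08.

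Gli1, the activator whose own RNA is often taken as the most direct readout of the pathway, was flagged well above background on all 6 arrays but was dim, at 2.18 to 2.76 times background. Its log2 ratios were 0.05, 0.07 and 0.08 in controls and -0.03, -0.05 and -0.04 in mutants. In this ratio the groups did not overlap and each was tight, with an SD of 0.02 in controls and 0.01 in mutants. The difference was small, -0.11 (SE 0.10, 95% interval -0.35 to 0.14, adjusted p = 0.556; exact permutation p = 0.1). The sample channel alone differed by -0.32, with overlapping groups, and the reference channel by -0.22. Both channels read highest on control 3, so the tight separation holds for the ratio and not for the sample signal. The 6 to 10 spots used on one array had an SD of 0.06 to 0.12 log2 units, and the array value is their mean. With the scanner's processed signals, from which background is subtracted, the difference was -0.33 (adjusted p = 0.429). Gli1 kept its negative sign under all 23 alternatives and passed under none.

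**Figure D3:**
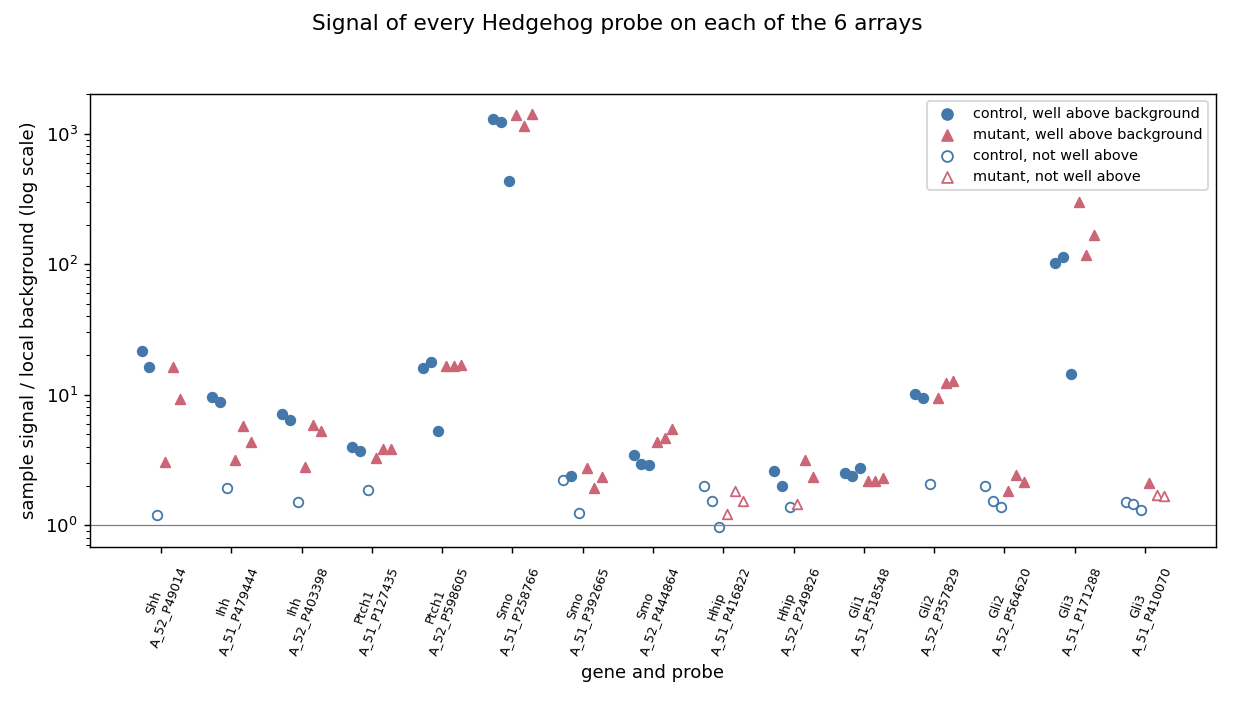
Sample signal divided by local background for each of the 15 Hedgehog probes on the 6 arrays (log axis; circles controls, triangles mutants, filled where well above background). Control 3 is among the lowest points of most probes. The Hhip, Gli1, Gli2 A_52_P564620, Gli3 A_51_P410070, Ptch1 A_51_P127435 and Smo A_51_P392665 probes sit within 4 times the background.

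**Figure D4:**
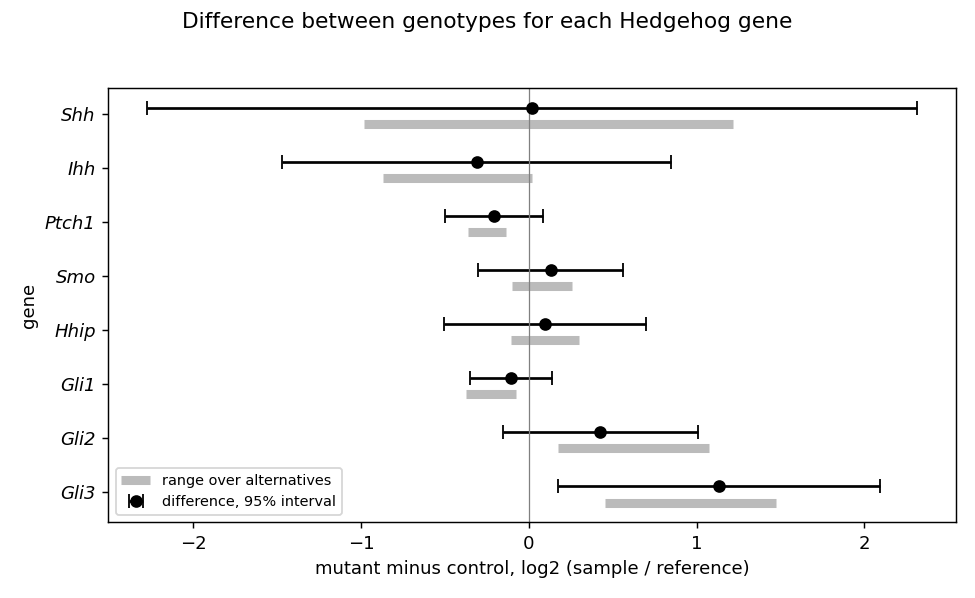
Difference between genotypes for each Hedgehog gene on the log2 scale, with the 95% interval of the fit (black) and the range over the alternative settings (grey). The interval of Gli3 alone lies above 0, from 0.17 to 2.10, before adjustment over genes, and that of Shh is the widest.

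The genes whose profile over the 6 arrays was nearest to each member, by the root mean square difference of centred log2 ratios, give a further description. Tspan2, a tetraspanin, lay at 0.18 from Shh, against a spread of Shh itself of 1.19. The nearest to Gli3 were Serpina3g, a serine protease inhibitor, at 0.05 and Igf1, a growth factor, at 0.07, against a spread of 0.75. Serpina3g and Igf1 had their highest array in mutant 1, as Gli3 did, with log2 ratios of -0.21 and -0.17 there. The nearest genes were Ncald and Lrrc31 for Ihh, AK032668 and Mycbp for Ptch1, Dnttip2 and Nkain1 for Smo, and Ccdc30 and Galnt12 for Hhip. For Gli1 they were Phgdh and Fasn, and for Gli2 Ccdc102a and AY172399.

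The rest of the pathway was described through 54 further genes, of which 52 were tested. None of them passed, against 2.82% of all genes. An unadjusted p under 0.05 in limma was found for 10 of the 52, against 4905 of 20569 genes in all. The groups did not overlap for 23 of the 52, against 37.9% of all genes, and 32 differences were positive and 20 negative. The median difference was 0.08. Without control 3, 1 of the 52 passed, Mycn, at a setting that called 7.21% of all genes. With array weights 30 passed and without control 3 and mutant 1 together 18 passed, at the settings that called 56.2% and 37.6% of all genes.

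Of the genes for making and releasing ligands, 7 were tested. Dhh, the ligand known from Schwann cells and endothelium, had log2 ratios of -0.51, -0.75 and -1.54 in controls and of 1.41, 0.26 and 0.04 in mutants. It was higher in every mutant, with mutant 1 highest, by 1.51 (SE 0.43, adjusted p = 0.119). Scube1, of a family that carries ligand away from the producing cell, read 2.63, 2.36 and 0.54 in controls and 3.56, 2.98 and 2.82 in mutants. Its difference was 1.27 (SE 0.56, adjusted p = 0.229). Scube3 differed by 0.21 and Disp2, a relative of the ligand-releasing Disp1, by -0.17. Of 6 immune markers 1 was called, Cd68, a macrophage marker (1.49, adjusted p = 0.017). Their summed signal was 10947 to 14059 units in controls and 27353, 27158 and 26267 on mutants 1 to 3. Gene by gene the order of the mutants differed (markers beside Cd68 are named after their values were seen). On mutants 1 to 3, Ptprc read -2.85, -4.88 and -4.86, and Itgam 2.04, 0.78 and 0.82. Adgre1 read -1.93, -2.44 and -2.44 and, like them, was highest on mutant 1. Cd68, at -0.24, 0.26 and 0.18, was lowest of the mutants there. So were Cd79b, at -3.065, -2.96 and -2.90, and Cd3e, at -0.06, -0.02 and 0.01. The part of these immune markers in the values of Dhh and Gli3 was not tested. Of 5 endothelial markers none was called. Their summed signal was 8645, 8709 and 4033 units on controls 1 to 3 and 13619, 5818 and 5598 on mutants 1 to 3. It was highest on mutant 1 and lowest on control 3, as Dhh was. Mutants 2 and 3 lay below controls 1 and 2 in this sum, whereas Dhh was higher in every mutant. Gene by gene, Pecam1, Cdh5 and Kdr were highest on mutant 1 and Tek and Emcn on control 1 (named after their values were seen). Of 4 nerve and Schwann cell markers none was called. Their summed signal was 2626, 2128 and 1519 units on controls 1 to 3 and 1211, 1720 and 1473 on mutants 1 to 3. The part of either set in the values of Dhh was not tested.

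Of the 6 co-receptors and further receptors, 4 were positive. The groups separated for 1 of the 6, Cdon, against 37.9% of all genes. Cdon, a ligand-binding co-receptor, had log2 ratios of -3.25, -3.44 and -4.48 in controls and of -2.55, -3.17 and -3.06 in mutants. Its difference was 0.79 (SE 0.35, adjusted p = 0.233). Gas1, another co-receptor, differed by 0.45, Gpc3, a ligand-binding glypican, by -0.13, and Boc, a relative of Cdon, by 0.08. Control 3 was the lowest array for Cdon and Gas1, as for Gli2 and Gli3.

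In signal transduction, 15 genes were tested, 8 positive and 7 negative, with a median of 0.06. Arrb2, a beta-arrestin, had the smallest p of the list, with log2 ratios of -2.23, -2.39 and -2.79 in controls and of -1.19 on mutant 1 and -2.03 on mutant 3, with mutant 2 between them (difference 0.73, SE 0.27, adjusted p = 0.180). Evc2, a ciliary partner of Smo, was higher by 0.36 (adjusted p = 0.203) and Csnk1a1, a kinase of the Gli proteins, by 0.28 (adjusted p = 0.220). Kif7, the kinesin that regulates Gli proteins at the ciliary tip, read -0.89, -1.07 and -0.44 in controls and -1.81, -1.18 and -1.12 in mutants, a difference of -0.57 (adjusted p = 0.228). The groups did not overlap for 8 of the 15, against 37.9% of all genes.

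Of 14 genes that build the primary cilium, 11 were positive, against 10404 of 20569 genes in all, with a median of 0.15. The groups did not overlap for 6 of the 14, against 37.9% of all genes. Tulp3, which carries receptors into the cilium, came nearest to the threshold of all 60 pathway genes tested. It read -0.84, -0.86 and -1.13 in controls and -0.31, -0.44 and -0.47 in mutants, a difference of 0.53 (SE 0.13, adjusted p = 0.090). Arl13b, a ciliary GTPase, was higher by 0.53 (adjusted p = 0.192) and Kif3b, a motor subunit of ciliary transport, by 0.38 (adjusted p = 0.195). Ift140, of the transport complex for return from the tip, was higher by 0.24 (adjusted p = 0.274).

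Genes reported elsewhere as Hedgehog targets gave no common direction, with 5 of 10 tested positive and 5 negative. The 4 with the smallest p were all lower in mutants. Bmp4, a secreted signal, had log2 ratios of -0.82, -0.53 and -0.61 in controls and of -1.68, -1.15 and -1.12 in mutants, a difference of -0.66 (SE 0.19, adjusted p = 0.117). Ccnd2, a cyclin of the G1 phase, read 0.48, 0.24 and 0.76 in controls and 0.07, -0.19 and -0.11 in mutants, a difference of -0.57 (SE 0.17, adjusted p = 0.124). Mycn, a proliferation-linked transcription factor, read -1.03, -1.10 and -1.85 in controls and -1.86, -2.19 and -2.23 in mutants, a difference of -0.77 (SE 0.25, adjusted p = 0.143). Control 3 was nearly as low as mutant 1, and without control 3 Mycn fell by 1.03 and passed (adjusted p = 0.027). Bcl2, an inhibitor of cell death, differed by -0.55 (adjusted p = 0.187), with control 3 below mutant 1. Nkx3-2 was well above background on 0 arrays and Foxl1 was not found by name.

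**Figure D5:**
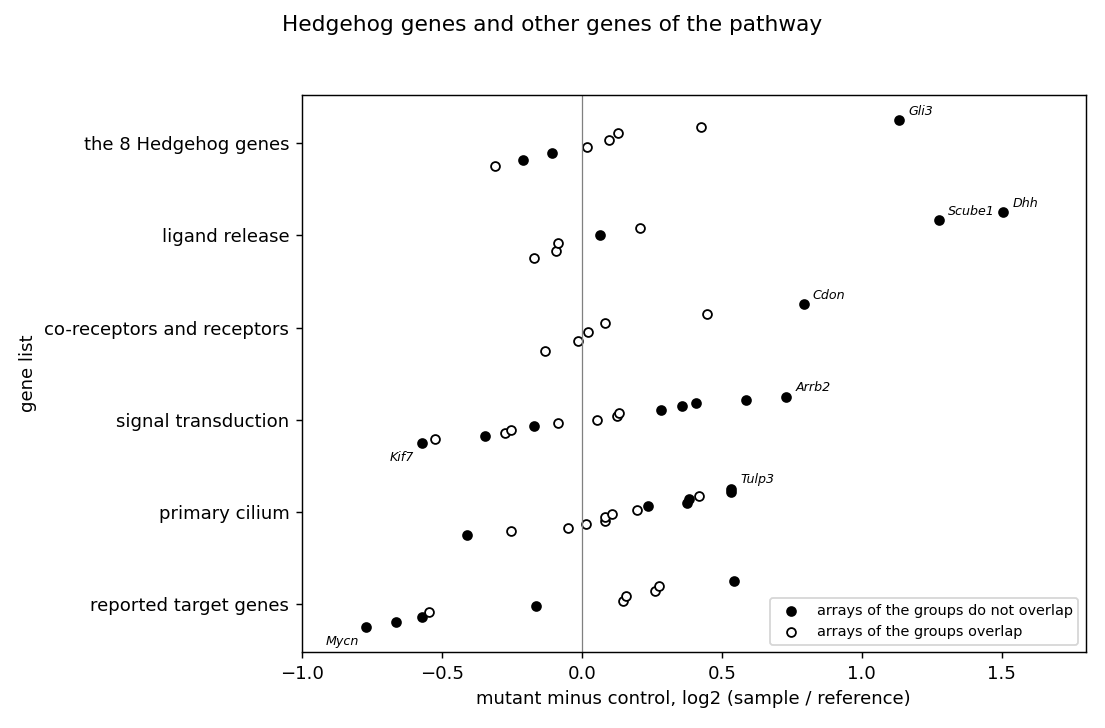
Difference between genotypes for the 8 Hedgehog genes and 52 other tested genes of the pathway, by list (filled where the arrays of the groups do not overlap). Cilium genes lie mostly to the right, 11 of 14, and target genes on both sides, 5 and 5; none of the 60 passed the threshold.

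Among the 10 target genes tested, 3 had control 3 and mutant 1 as their lowest pair of arrays (12.4% of all genes did). One of them is Foxf2, a mesenchymal transcription factor singled out after its values were seen. Its log2 ratios were -0.79, -1.33 and -3.53 in controls and -2.04, -1.40 and -1.38 in mutants, again lowest on control 3 and mutant 1. The difference was 0.28 (SE 0.70, adjusted p = 0.832). Its paralogue Foxf1 did not share this order, at -0.44, -0.37 and -0.22 in controls and -0.43, -0.29 and 0.13 in mutants. Smooth muscle markers were low on the same arrays for 5 of 6 genes. Their summed signal was 77005 units on control 3 and 98389 on mutant 1, and 403880 to 669800 on the others. Des, a muscle filament protein named after its values were seen, read 1.71, 1.22 and -1.30 in controls and -1.24, 1.66 and 1.55 in mutants. Myh11, a smooth muscle myosin and the exception, read 4.25, 4.14 and 3.79 in controls and 3.44, 3.90 and 3.64 in mutants. Fibroblast markers were lowest on control 3, at 84898 units, with up to 335110 on the other controls and 327990 to 360140 in the mutants. The part of these markers in the values of Foxf2, Hhip, Gli2 and Gli3 was not tested.

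Promoter sequence was examined as a description. RefSeq windows of build GRCm38.p6, from 250 bases before to 50 after the start site, were held for 6 of the 8 genes, not for Shh and Gli1. The Gli consensus GACCACCCA was searched on both strands. An exact match occurred in 0.253% of 32851 windows and a match with at most 1 mismatch in 6.74%, and in 0 of the 6 members' windows, which says only that these letters are not there.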

How the data were processed

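RNA of 3 control and 3 mutant mice was hybridised to 2-colour Agilent arrays of 41174 probes. The deposited intensity values are scanner output per spot: for both channels a mean signal, a local background median and a processed signal that the software had corrected for background and dye, per the file headers. The log10 ratio of red over green in the same files was computed by that software, per the file headers, and served to match the deposited table to its arrays. The headers name Agilent Feature Extraction 10.5.1.1 (10.7.3.1 for control 3) and build mm9; the submitters' processing notes give version 9.1. The authors also deposited log2 ratios, which run as sample over reference when compared with the scanner files and served as an alternative; neither their centring nor their normalization is stated in the sources used here.

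From the scanner files, intensities were background-corrected with normexp (offset 50) and loess-normalized within arrays in limma 3.58.1 (R 4.3.3), without control and outlier spots, and repeat spots were averaged, which gave the log2 ratio of sample to reference. The filter required 3 of 6 arrays with a sample channel well above background. A gene was its probe with the brightest mean sample signal (7064 genes had several). Names came from the RefSeq table of GRCm38.p6 for 79.4% of probes and from the files otherwise; all 15 Hedgehog probes carry their names in the files. Groups were compared with lmFit and eBayes, two-sided, with Benjamini-Hochberg adjustment over 20569 genes, and by exact permutation for single genes. Summed marker signals are linear sample-channel units after Aquantile normalization. Dyes were not swapped. The number of arrays limits the precision, with 4 residual degrees of freedom. The labels call the replicates biological but do not describe housing or pooling, so the p-values rest on the spread of these samples, which may partly be technical. The fit was tested on simulated data.

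The 8 genes and the lists were chosen with earlier results of these data known. Named are all members and their probes, the up to 4 genes of smallest p in each further pathway list, the 2 genes nearest in profile to each member, marker genes that were called or highest in their list, and Sox2; exceptions are marked in the text, and 1 gene that the rule names is not reported here. Alternatives concerned background correction, normalization, the channel, the deposited table, the filter, the choice of probe, replicates, slide, scan day and array weights. Leaving out control 3 and mutant 1 together was added after seeing the data.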

Additional observations from a re-analysis of the deposited data

How the results depend on the processing

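Between 22 and 23 alternatives were run for each of the 8 genes. No member passed in the main analysis; 4 passed with array weights, 3 without control replicate 3 and mutant replicate 1, and 0 under each of the others. Gli3 and Gli2 stayed positive and Ptch1 and Gli1 negative throughout. Shh turned negative with median centring (-0.0073), the sample channel alone (-0.077), scan day as a block (-0.98), array weights (-0.39) and without control 3 and mutant 1 (-0.41), and ran from -0.98 to 0.68 when 1 array was left out; its highest value was 1.22, with processed signals. Smo turned negative with scan day as a block (-0.042), array weights (-0.044) and without control 3 and mutant 1 (-0.10), and ran from -0.042 to 0.24 when 1 array was left out. Hhip was -0.10 with scan day as a block and -0.10 to 0.30 when 1 array was left out, and Ihh -0.87 to 0.021. The scan day block gives the values without control 3, because that array alone holds scan day 2. Other pathway genes called numbered 1 with scan day as a block, 30 with array weights, 18 without control 3 and mutant 1, and 0 to 1 when 1 array was left out. The count of all genes called, 581, was 226 with processed signals, 268 with median centring, 312 with the sample channel alone, 0 with the near-identical arrays averaged (2194 at an unadjusted p under 0.05 in limma), 4 with slide as a random block, 1483 with scan day as a block, 11557 with array weights, 7731 without control 3 and mutant 1, and 34 to 1483 when 1 array was left out. The replicate block, with the replicate number as a term, gave 137 genes and 0 members; deviations of same-numbered arrays correlated at 0.00, 0.02 and 0.13, so the numbers were not taken to pair the arrays. Causes were not tested. The sample signal lay at 2.18 to 2.76 times background for Gli1 and 1.37 to 3.15 times for Hhip, and whether a dimmer probe hides small differences was not tested.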

Other observations

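In the authors' deposited table Gli3 read -1.13, -1.19 and -0.04 in mutants 1, 2 and 3. The high mutant there is number 3, whereas in the scanner files it is number 1. Shh shows the same exchange: the authors' deposited table gives 3.69, 4.21 and 2.29 for mutants 1 to 3, with the low value at number 3. Over all probes, its column for mutant 1 correlated at 0.963 with the scanner file of mutant 3 and at 0.865 with that of mutant 1. The sources used here do not settle which numbering is right, and the group means do not depend on it.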
